A study of Mus musculus with 6 samples.

Results

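The PPAR, ERR and PGC-1 metabolic regulators are 10 genes: the nuclear receptor genes Ppara, Ppard, Pparg, Rxrg, Esrra and Esrrg, the coactivator genes Ppargc1a and Ppargc1b, their muscle partner Perm1, and Mlxipl, which encodes the glucose-responsive factor ChREBP. All 10 were found among the 18193 genes measured, each read from the probe set annotated to that gene alone that had the highest mean over all arrays. Total RNA from isolated mouse heart cells (C57BL/6J) was hybridised to 6 Affymetrix arrays, 2 for each of 3 groups. These are cardiomyocytes from male hearts at 8 weeks of age (adult), released by Langendorff perfusion, and cardiomyocytes and cardiac fibroblasts from hearts of both sexes at postnatal day 1 (neonatal), separated on Percoll. Adult and neonatal groups therefore differ in age, sex and isolation method at once. All cells were dissociated with trypsin and collagenase, and the labels also describe plating, with a mitochondrial dye to look for leftover cardiomyocytes among the fibroblasts. The labels leave unsaid whether the 2 arrays of each group stem from independent preparations. The source of the array-to-array spread behind all p-values is therefore unknown. Arrays of 1 group also differed in marker genes: the adult pair had log2 medians of 8.01 and 12.89 for atrial markers. What caused this was not tested.

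PPARs are receptors for fatty acids and their derivatives; each binds DNA in a pair with a retinoid X receptor (RXR) and switches on genes of fatty acid uptake, storage and oxidation. ERRs bind DNA without a known natural ligand, and PGC-1 proteins, which do not bind DNA themselves, are recruited by both receptor classes and raise mitochondrial gene expression. The heart relies largely on glucose and lactate before birth and on fatty acids afterwards, and PPAR alpha, the ERRs and the PGC-1 coactivators are known regulators of that change in mouse.

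The starts of the 4 members that rose in adult over neonatal cardiomyocytes are shown first, because these 4 share a call in that comparison. RefSeq sequence (GRCm38.p6), matched by symbol, was used for 9 of the 10 members, in 16 windows of 250 bases before a transcript start. Ppargc1b was left out by a filter on its chromosome. That filter was not applied to the RefSeq windows of all genes given for comparison. Both strands were searched for the nuclear receptor half-site AGGTCA, the longer ERR form AAGGTCA (which contains it), the direct repeat AGGTCANAGGTCA, the E-box CACGTG bound by ChREBP-type factors, the cAMP response element TGACGTCA and the MEF2 site. In the lines below, 5′ to 3′ on the gene's strand and ending just before the start, capitals mark these matches.
Perm1, chr4:156215677-156215926, plus strand: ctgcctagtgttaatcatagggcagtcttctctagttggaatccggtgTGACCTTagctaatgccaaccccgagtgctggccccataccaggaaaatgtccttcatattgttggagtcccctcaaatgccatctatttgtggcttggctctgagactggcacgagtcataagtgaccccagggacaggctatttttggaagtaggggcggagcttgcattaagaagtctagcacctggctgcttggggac
Rxrg, downstream of its 2 listed starts, chr1:167618015-167618264, plus strand: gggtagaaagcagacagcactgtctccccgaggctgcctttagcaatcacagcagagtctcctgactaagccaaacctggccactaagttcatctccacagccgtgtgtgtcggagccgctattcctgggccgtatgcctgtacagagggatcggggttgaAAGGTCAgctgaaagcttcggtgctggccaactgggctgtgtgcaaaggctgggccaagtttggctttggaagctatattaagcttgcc
Mlxipl, upstream of its 2 listed starts, chr5:135089640-135089889, plus strand: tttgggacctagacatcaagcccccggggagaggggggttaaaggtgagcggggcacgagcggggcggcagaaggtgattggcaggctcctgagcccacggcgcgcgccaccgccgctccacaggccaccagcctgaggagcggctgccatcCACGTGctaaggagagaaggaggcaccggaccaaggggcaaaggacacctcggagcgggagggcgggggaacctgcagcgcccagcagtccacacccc
Ppara, chr15:85735526-85735775, plus strand: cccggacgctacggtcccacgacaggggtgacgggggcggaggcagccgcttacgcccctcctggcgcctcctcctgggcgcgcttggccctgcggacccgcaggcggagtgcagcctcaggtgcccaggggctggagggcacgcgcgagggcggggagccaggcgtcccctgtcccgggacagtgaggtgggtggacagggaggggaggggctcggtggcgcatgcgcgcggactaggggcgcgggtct
Perm1 and this Rxrg window each hold the AAGGTCA form, in Perm1 on the other strand as TGACCTT, and this Mlxipl window holds an E-box. For Rxrg and Mlxipl the window printed is the one with a match. The other listed window of each gene held none of the 6 motifs. None of the 6 motifs was found in the Ppara window, which says only that those letters are not in these 250 bases. Over all 16 windows AGGTCA was in 4, which include 2 Pparg windows beside those of Perm1 and Rxrg, against 14.0% of the 32851 RefSeq windows of this length; AAGGTCA was in 2, against 4.08%. The E-box was in 1 window (6.02% of all), the MEF2 site in 1, at Esrrg (2.92%), and the direct repeat and the cAMP response element in 0 (0.0335% and 1.55%). Binding was not measured, and a match is a description of the letters.

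Values are log2 RMA values (background-corrected, quantile-normalized probe set summaries); a gene is called, and said to have risen, fallen or changed, where limma's adjusted p over all 18193 genes was under 0.05, while higher and lower describe group means. RMA gives no detection call, so a low value does not show that a transcript was absent, and levels are not compared between genes. On both neonatal replicate 1 arrays the title contradicts the source name, cell type and description, and grouping went by the last 3. The median of 10 cardiomyocyte markers was 14.14 and 14.04 on the adult arrays (replicates 1 and 2), 14.02 and 13.54 on the neonatal cardiomyocyte arrays, and 7.48 and 10.78 on the fibroblast arrays. The 12 fibroblast markers ran at 8.24 and 9.40, 9.37 and 8.93, and 12.14 and 11.46 in that order, and the 10 leukocyte markers at 6.88 and 8.51, 7.16 and 5.64, and 11.91 and 9.39. Fibroblast replicate 2 thus carried more cardiomyocyte transcripts than replicate 1. Among 5 atrial markers the adult arrays stood apart, at 8.01 and 12.89, against 13.73 and 13.96 in neonatal cardiomyocytes and 8.07 and 11.09 in fibroblasts. The RNA comes from bulk preparations, in which fewer cells of a type and less RNA per cell cannot be told apart.

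The regulators are grouped here by the comparisons in which each was called, which is no test that members differ from each other. Ppara and Perm1 were stepped, with both cardiomyocyte groups above fibroblasts and adult above neonatal cells, and changed in all 3 comparisons. Rxrg and Mlxipl rose in adult cells over both neonatal groups. Ppargc1b and Esrrg rose in both cardiomyocyte groups over fibroblasts and were not called between adult and neonatal cardiomyocytes. Ppargc1a, Esrra and Pparg were called only between adult cardiomyocytes and fibroblasts, and Ppard in no comparison.

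**Figure D1:**
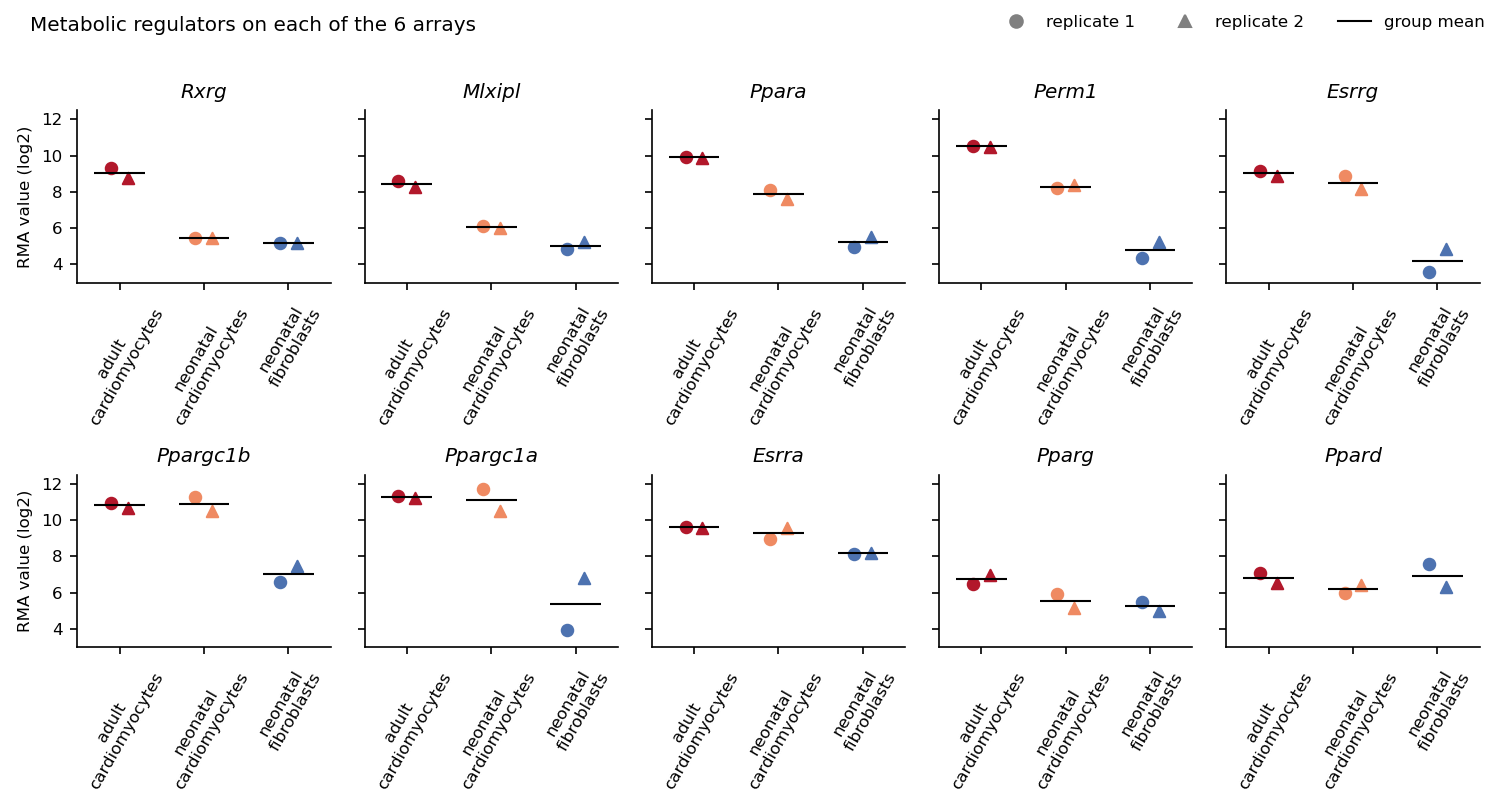
RMA values (log2, vertical axis) of the 10 regulators on each array: circles are replicate 1, triangles replicate 2 and lines group means, with adult cardiomyocytes left, neonatal cardiomyocytes in the middle and neonatal fibroblasts right. Rxrg and Mlxipl are highest in the adult group, Ppara and Perm1 form steps, and for Ppargc1a, Ppargc1b and Esrrg both cardiomyocyte groups stand above the fibroblasts.

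Between adult and neonatal cardiomyocytes, 4 of the 10 regulators rose and 0 fell. Of all genes 2.30% were called in this comparison, 1.08% as higher and 1.22% as lower, and 22.8% had an unadjusted p under 0.05. Rxrg encodes RXR gamma, the muscle- and brain-enriched retinoid X receptor. It measured 9.32 and 8.75 in adult cardiomyocytes, against 5.44 and 5.48 in neonatal cardiomyocytes, while fibroblasts had 5.20 and 5.15. Both adult arrays lay far above all 4 neonatal arrays. The log2 difference was 3.58 ± 0.24 (SE, n = 2 each), an 11.9-fold rise with an adjusted p of 0.0166, and 0.632% of all genes differed by more. The other RXR genes, named after their values were seen, differed by 0.45 (Rxra, adjusted p = 0.210) and 0.24 (Rxrb, adjusted p = 0.521).

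Mlxipl measured 8.59 and 8.27 in adult cardiomyocytes, against 6.10 and 6.03 in neonatal cardiomyocytes, with 4.86 and 5.22 in fibroblasts. The 3 groups were ordered without overlap, and the adult step was 2.37 ± 0.22 (SE; 5.16-fold, adjusted p = 0.0220). Ppara, the receptor of the fatty acid oxidation programme, had 9.93 and 9.86 in adult cardiomyocytes, against 8.12 and 7.60 in neonatal cardiomyocytes and 4.96 and 5.50 in fibroblasts. Its adult arrays differed little and again lay above all others, with a rise of 2.04 ± 0.28 (SE; 4.11-fold, adjusted p = 0.0408).

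Perm1, a muscle protein that is itself induced by PGC-1 and ERR, had 10.52 and 10.49 in adult cardiomyocytes, against 8.21 and 8.38 in neonatal cardiomyocytes and 4.35 and 5.22 in fibroblasts. The 3 groups did not overlap, and the rise was 2.21 ± 0.32 (SE; 4.63-fold, adjusted p = 0.0432). With the mean of both Perm1 probe sets the difference was 1.24 and was not called. Across the 10 members, 9 had higher means in adult cells, against 57.4% of all genes. The members and lists were chosen with earlier results of these data known, so such shares are no test in any comparison. Non-overlapping arrays were found for 7 members, all of these higher. Of all 18193 genes, 6172 were higher without overlap, and 57.7% did not overlap in either direction. The members' median difference was 0.88, beside 0.09 over all genes.

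These calls rested on few arrays. Limma called 0 of the 10 members, and 0 genes in all, without either adult array or without neonatal cardiomyocyte replicate 2; 4 or 5 members then had an unadjusted p under 0.05. Without neonatal cardiomyocyte replicate 1 only Rxrg was called, and without either fibroblast array Perm1, Rxrg and Mlxipl. With the arrays grouped by their titles only Rxrg was called. The differences of all 4 kept their sign in each of these fits: over all alternatives Rxrg lay between 3.29 and 3.86, Mlxipl between 2.21 and 2.99, Ppara between 1.78 and 3.62 and Perm1 between 1.24 and 4.14. Ppara lost its call in 12 of 17 alternatives and Perm1 in 9 of 17, beside 7 of 16 for Mlxipl and 5 of 16 for Rxrg. These alternatives are not all distinct. Leaving out either fibroblast array and fitting the 2 cardiomyocyte groups alone are the same fit here. On the same arrays 0 of 10 cardiomyocyte, 0 of 12 fibroblast, 0 of 10 endothelial and 0 of 5 atrial markers were called in limma, with 0, 3, 1 and 0 at unadjusted p under 0.05, and the endothelial median was 8.56 and 9.62 in adult, against 8.95 and 8.27 in neonatal cardiomyocytes. All 5 atrial markers had lower means in adult cells, with a median difference of −3.39 and a range of −3.70 to −1.12. Of 10 leukocyte markers 9 had higher means in adult cells (median 0.92), with 0 called and 0 at unadjusted p under 0.05. Of 7 smooth muscle and pericyte markers 0 were called in limma, but 4 had an unadjusted p under 0.05 and the differences ran from −2.54 to 3.70. The largest was that of the pericyte gene Rgs5, with 11.78 and 12.86 in adult, against 10.88 and 6.35 in neonatal cardiomyocytes. The part of these other cells in the differences was not tested.

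None of the coactivator and ERR genes was called between the ages, and limma gave Ppargc1a, Ppargc1b, Esrra and Esrrg unadjusted p-values of 0.869, 0.917, 0.257 and 0.350. Ppargc1a, which encodes PGC-1 alpha, measured 11.34 and 11.21 in adult cardiomyocytes, against 11.73 and 10.49 in neonatal cardiomyocytes. The adult arrays lay inside the neonatal range, and the difference was 0.17 with a 95% interval of −2.33 to 2.67, too wide to exclude a change of severalfold in either direction. Ppargc1b, encoding PGC-1 beta, had 10.96 and 10.68 in adult, against 11.25 and 10.48 in neonatal cardiomyocytes. These overlapped as well; the difference was −0.04 (95% interval −1.07 to 0.98), and turned to 0.044 when arrays were centred on their medians and to 0.0043 when quantile normalized again.

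Esrrg, which encodes ERR gamma, the ERR most tied to the oxidative perinatal heart in mouse, had 9.15 and 8.89 in adult cardiomyocytes, against 8.87 and 8.17 in neonatal cardiomyocytes. Its groups did not overlap but lay close, with a difference of 0.50 (95% interval −0.74 to 1.75, adjusted p = 0.562). Esrra, encoding ERR alpha, had 9.64 and 9.54 in adult and 8.94 and 9.59 in neonatal cardiomyocytes, which overlapped (difference 0.32, 95% interval −0.32 to 0.97). A p that misses the threshold does not show that the ages have the same level, and for Ppargc1a the interval leaves the most room. Whether the adult step of Rxrg or Ppara differs from that of the coactivators was not tested.

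**Figure D2:**
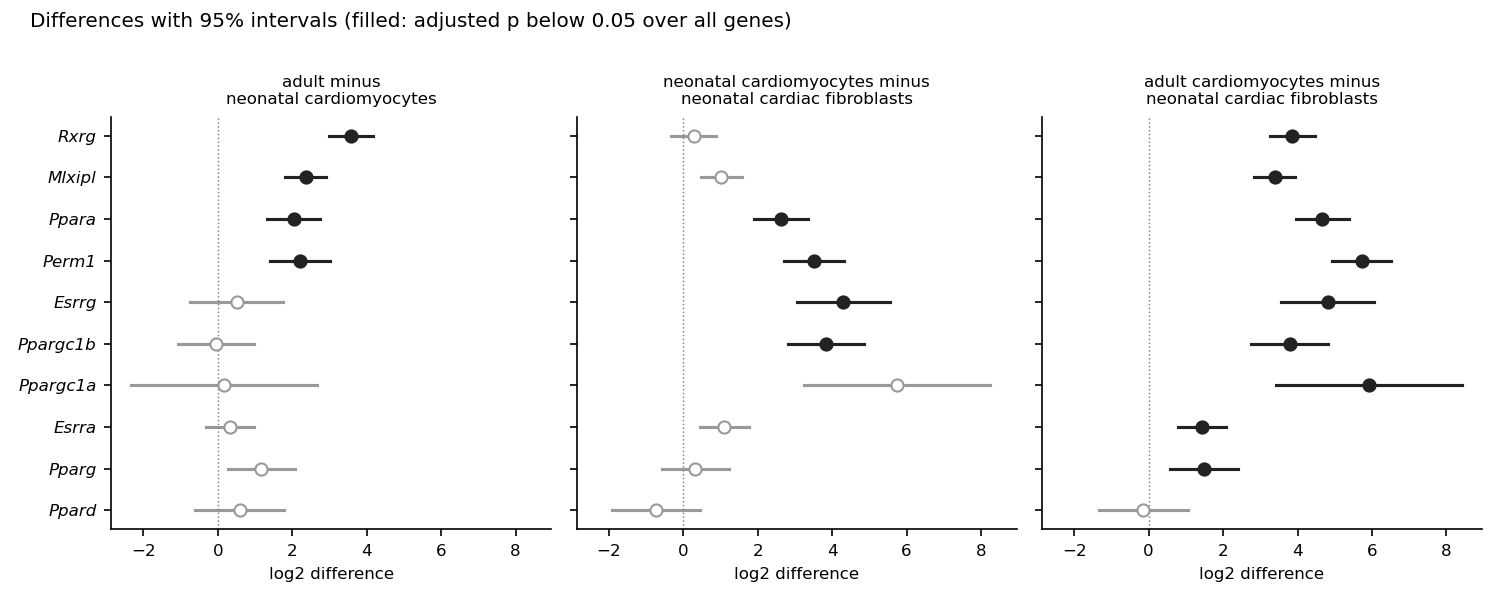
Log2 differences (horizontal axis) of the 10 regulators in the 3 comparisons, with 95% intervals from limma; filled points had an adjusted p under 0.05 over all genes. In the left panel the filled points are Rxrg (3.58), Mlxipl (2.37), Perm1 (2.21) and Ppara (2.04), while Esrrg, Ppargc1b and Ppargc1a straddle 0 there and lie between 3.83 and 5.75 in the middle panel.

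Between neonatal cardiomyocytes and neonatal fibroblasts, 4 regulators rose and 0 fell, where 0.819% of all genes were called and 0.676% were called higher. The adjusted p of these 4 lay between 0.0424 and 0.0441, and 0.0424 was the smallest of any gene. Perm1 differed by 3.51 ± 0.32 (SE; 11.4-fold) and Ppara by 2.63 ± 0.28 (6.17-fold), on the array values given above. Ppargc1b had 11.25 and 10.48 in neonatal cardiomyocytes, against 6.59 and 7.47 in fibroblasts, a rise of 3.83 ± 0.40 (14.3-fold). Esrrg had 8.87 and 8.17 in neonatal cardiomyocytes, against 3.56 and 4.86 in fibroblasts, a rise of 4.30 ± 0.49 (19.8-fold). For each of these 4 genes both cardiomyocyte arrays lay above both fibroblast arrays.

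Ppargc1a had the widest gap of the 10 members and missed the threshold. It measured 11.73 and 10.49 in neonatal cardiomyocytes, against 3.93 and 6.79 in fibroblasts, and the difference was 5.75 ± 0.98 (SE; 53.8-fold, adjusted p = 0.0754), with 0.0220% of all genes differing by more. The fibroblast arrays were 2.87 apart, with replicate 2 higher, a gap exceeded by 0.693% of genes, and the same array had the higher cardiomyocyte marker median (10.78, beside 7.48 on replicate 1). Without fibroblast replicate 2 Ppargc1a was called together with the 4 others. Fibroblast replicate 2 was also higher for Esrrg, Ppargc1b, Perm1, Ppara, Mlxipl and Esrra, by 1.30, 0.88, 0.87, 0.54, 0.37 and 0.04. It was lower than replicate 1 for Ppard, Pparg and Rxrg, by 1.24, 0.48 and 0.04. All 10 leukocyte markers had lower means in neonatal cardiomyocytes than in fibroblasts (median −3.99), with 0 called and 8 at unadjusted p under 0.05 in limma. Of 10 endothelial markers 8 had higher and 2 lower means in neonatal cardiomyocytes (median 1.63). Limma called 0 of these, with 4 at unadjusted p under 0.05. What cardiomyocyte or leukocyte RNA contributed to the fibroblast values, or endothelial RNA to either group, was not tested.

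Esrra had 8.14 and 8.18 in fibroblasts, below both neonatal cardiomyocyte arrays, with a difference of 1.11 ± 0.25 (SE, adjusted p = 0.122). Mlxipl differed by 1.02 ± 0.22 (adjusted p = 0.104), and Rxrg by 0.28 (95% interval −0.32 to 0.88). In all, 9 members had higher means in neonatal cardiomyocytes, against 47.4% of all genes, and 8 of them did not overlap. Of all 18193 genes, 4048 were higher without overlap, and 45.4% did not overlap in either direction. The members' median difference was 1.87, beside −0.02 over all genes. Limma called 0 members without neonatal cardiomyocyte replicate 1, without fibroblast replicate 1 or without either adult array, with 7 at unadjusted p under 0.05 each time and 0 genes called in all. Without neonatal cardiomyocyte replicate 2 the 4 named genes were called. All 4 calls were also lost with the replicate block (adjusted p 0.0537 to 0.0619), with these 2 groups alone, with every probe set tested and with the mean of all probe sets, where Perm1 was 1.71 and Esrrg 2.28. With the arrays grouped by their titles the 4 differences turned sign, to −0.53 for Ppara, −0.82 for Ppargc1b, −0.9995 for Esrrg and −0.35 for Perm1.

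Between adult cardiomyocytes and neonatal fibroblasts, which differ in age, sex and isolation as well as cell type, 9 of 10 regulators rose and 0 fell, where 21.0% of all genes were called and 10.1% were called higher. Ppargc1a had 11.34 and 11.21 in adult cardiomyocytes, against 3.93 and 6.79 in fibroblasts, a rise of 5.92 ± 0.98 (SE; 60.5-fold, adjusted p = 0.0184). Perm1 rose by 5.72 ± 0.32 (52.7-fold), Esrrg by 4.81 ± 0.49 (28.0-fold) and Ppara by 4.66 ± 0.28 (25.3-fold). Rxrg rose by 3.86, Ppargc1b by 3.79 and Mlxipl by 3.39. The smaller rises were those of Pparg (1.49 ± 0.36, adjusted p = 0.0426) and Esrra (1.43 ± 0.25, adjusted p = 0.0210). With the mean of both Esrra probe sets its difference was 0.51 (adjusted p = 0.102), and Pparg had an adjusted p of 0.0501 when every probe set was tested. On the same arrays 2 of 7 smooth muscle and pericyte markers rose and 2 fell, and all 7 had an unadjusted p under 0.05 in limma. Rgs5 differed by 7.19 (adjusted p = 0.0504). All 10 leukocyte markers had lower means in adult cardiomyocytes than in fibroblasts (median −3.09), and 1 fell. Of 10 endothelial markers 8 had higher and 2 lower means in adult cardiomyocytes (median 1.84), and 3 rose. The part of these other cells was not tested. The arrays of all 9 members that rose did not overlap. Of all 18193 genes, 6873 were higher without overlap, and 68.0% did not overlap in either direction. Higher means were found for 55.9% of all genes, and an unadjusted p under 0.05 in limma for 37.0%. This comparison shares its adult arrays with the first and its fibroblast arrays with the second, so its values are not independent of theirs. Without adult replicate 1 limma called 0 members (9 at unadjusted p under 0.05) and 0 genes in all; without adult replicate 2 it called Ppara, Perm1, Rxrg and Mlxipl, and without either fibroblast array all but Pparg and Esrra of the 9. With the arrays grouped by their titles only Rxrg was called.

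Of the PPAR genes, Ppara alone was called outside that last comparison. Pparg, the receptor best known from fat cells, measured 6.48 and 6.97 in adult cardiomyocytes, 5.94 and 5.17 in neonatal cardiomyocytes, and 5.47 and 4.99 in fibroblasts. Adult arrays were above all neonatal ones, but the adult difference from neonatal cardiomyocytes, 1.17 ± 0.36 (SE), had an adjusted p of 0.149. The neonatal groups overlapped. The median of 7 fat cell markers was 4.76 and 4.14 in adult cardiomyocytes, 4.42 and 4.07 in neonatal cardiomyocytes and 4.16 and 4.02 in fibroblasts, and the fat hormone gene Adipoq, with values between 3.11 and 3.75, was called in no comparison (unadjusted p over 0.05 in limma each time). Of the 7, Cidea alone rose in adult cardiomyocytes over fibroblasts (4.18), and Fabp4, also an endothelial gene, differed by 5.12 (adjusted p = 0.0651).

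Ppard, encoding the broadly expressed PPAR delta, had 7.07 and 6.51 in adult cardiomyocytes, 5.98 and 6.42 in neonatal cardiomyocytes, and 7.55 and 6.31 in fibroblasts. Its adult arrays lay above the neonatal cardiomyocyte arrays by a mean of 0.59 (adjusted p = 0.480), and the fibroblast arrays spanned nearly the whole range. The difference between adult cardiomyocytes and fibroblasts was −0.14 (95% interval −1.34 to 1.06), and its sign turned with median centring (0.0053) and with repeated quantile normalization (0.061).

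The 10 members have 21 probe sets annotated to them alone, and 6 members have more than 1. The 3 Ppara probe sets moved together, with adult differences from neonatal cardiomyocytes of 1.67 to 2.04 and neonatal differences from fibroblasts of 1.67 to 2.66. All 5 Ppargc1a probe sets were higher in neonatal cardiomyocytes than in fibroblasts, by 4.76 to 5.75, and all 5 were called between adult cardiomyocytes and fibroblasts when every probe set was tested. Between adult and neonatal cardiomyocytes they split, from −0.87 to 0.24, with 3 above 0. A second Esrra probe set went the other way from the one used, with 6.42 and 5.95 in adult cardiomyocytes, against 7.97 and 7.10 in neonatal cardiomyocytes (−1.35, adjusted p = 0.143 over all probe sets), and it was also lower in adult cardiomyocytes than in fibroblasts, which had 6.79 and 6.41 (−0.41). The second Perm1 probe set stayed between 4.65 and 5.28 on all arrays and the lowest Esrrg one between 4.30 and 5.12, so the steps of these genes rest on the brighter probe sets. Pparg, Ppargc1b, Rxrg and Mlxipl each rest on a single probe set.

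**Figure D3:**
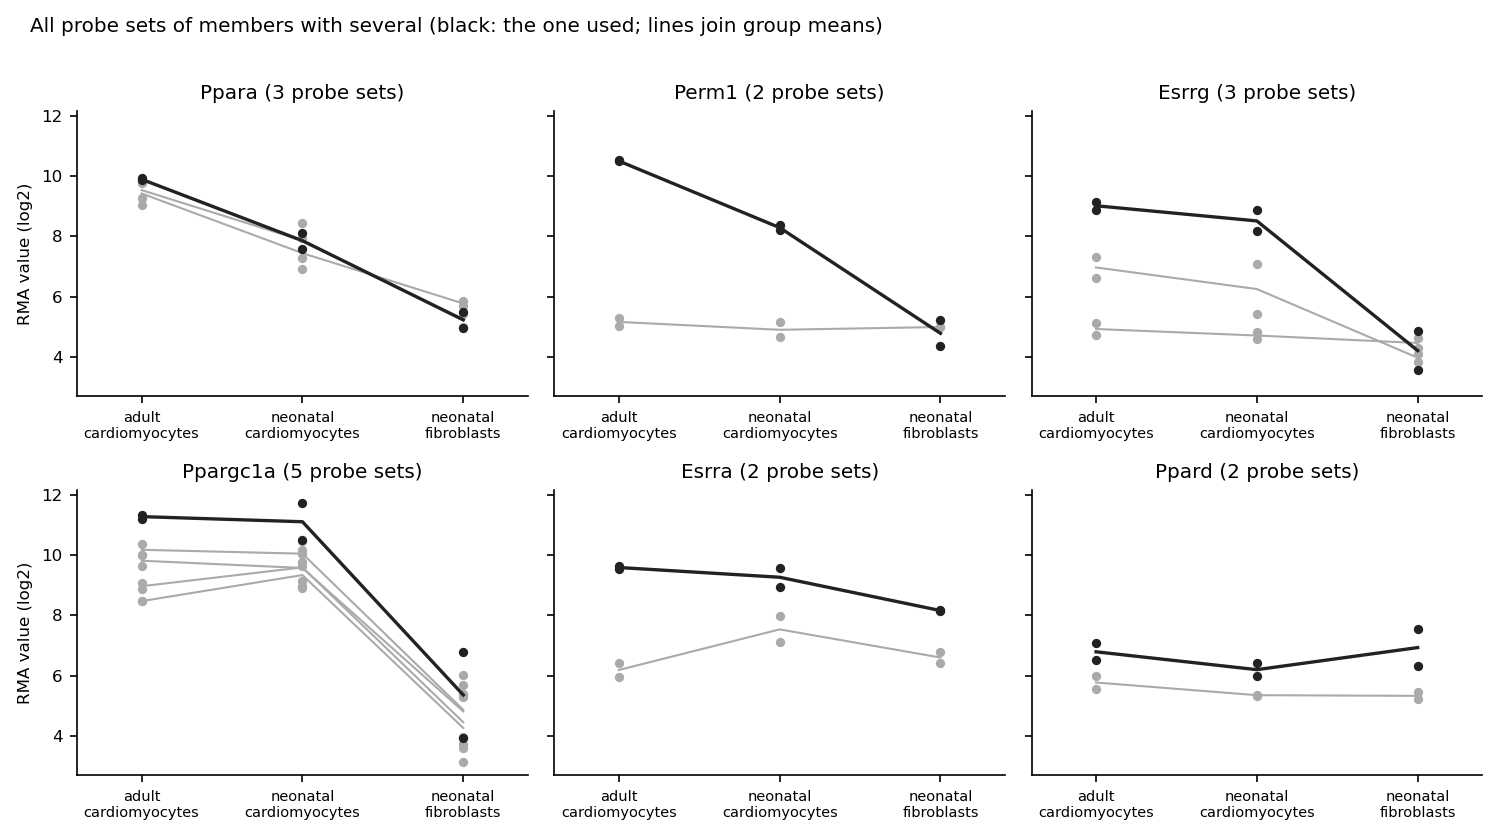
RMA values (log2, vertical axis) of every probe set of the 6 regulators that have more than 1, in adult cardiomyocytes, neonatal cardiomyocytes and neonatal fibroblasts from left to right; points are arrays, lines join group means and black marks the probe set used. The 3 Ppara and 5 Ppargc1a probe sets run together, while the second Esrra probe set peaks in neonatal cardiomyocytes and the second Perm1 probe set is flat.

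Of 31 co-regulators and binding partners of the regulators 0 were called between adult and neonatal cardiomyocytes in limma (9 at unadjusted p under 0.05), with a median of 0.09, the same as over all genes. Lpin1, a phosphatidate phosphatase and PGC-1 alpha coactivator, had 11.64 and 10.97 in adult, against 8.59 and 8.74 in neonatal cardiomyocytes (2.64 ± 0.52 SE, adjusted p = 0.0737). Tfb2m, a mitochondrial transcription factor, differed by 0.97 and Crebbp, a histone acetyltransferase, by −0.75 (adjusted p = 0.0647 and 0.0886). Between neonatal cardiomyocytes and fibroblasts 0 were called in limma (10 at unadjusted p under 0.05); the mitochondrial deacetylase gene Sirt3 (2.18), the AMP kinase subunit gene Prkaa2 (4.19) and Prox1 (3.23), a repressor of ERR alpha and PGC-1 alpha in mouse liver, had adjusted p between 0.0515 and 0.0701. In adult cardiomyocytes over fibroblasts 9 rose and 2 fell, led by Prkaa2 (4.09), Prox1 (3.52) and Lpin1 (3.37).

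Of 27 target genes of PPAR alpha and delta, 26 had higher means in adult than in neonatal cardiomyocytes (median 1.35), but only Ech1, an auxiliary enzyme of unsaturated fatty acid oxidation, with 2.59 and an adjusted p of 0.0475, and Decr1, which reduces double bonds for the same pathway (1.83, adjusted p = 0.0453), rose; 16 had an unadjusted p under 0.05. Cpt2, of the mitochondrial carnitine shuttle, differed by 1.96 (adjusted p = 0.0548). In neonatal cardiomyocytes over fibroblasts limma called 0 (20 at unadjusted p under 0.05), with a median of 1.85; Pdk4, which restrains glucose oxidation, differed by 4.54 and the acyl-CoA enzyme genes Acadl and Acaa2 by 2.58 and 2.34 (adjusted p between 0.0559 and 0.0605). In adult cardiomyocytes over fibroblasts 20 rose and 1 fell (median 3.26), with the largest rises in Pdk4 (6.03), the lipid droplet gene Plin5 (5.78) and the fatty acid binding protein gene Fabp3 (4.87). The neonatal cardiomyocyte arrays differed in this list: its median was 11.77 on replicate 1 and 10.11 on replicate 2, beside 12.53 and 12.41 on the adult arrays. The members differed between these 2 arrays as well. Replicate 1 minus replicate 2 was 0.52 for Ppara, 1.24 for Ppargc1a, 0.77 for Ppargc1b and Pparg, 0.70 for Esrrg and 0.06 for Mlxipl. This difference was −0.64 for Esrra, −0.44 for Ppard, −0.17 for Perm1 and −0.04 for Rxrg.

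The ERR and PGC-1 target list, mostly mitochondrial genes, shares Fabp3, Acadm and Pdk4 with the PPAR list. Of 33 genes, 32 had higher means in adult than in neonatal cardiomyocytes, but the median was 0.49 and limma called 0 (4 at unadjusted p under 0.05); Acadm differed by 1.37, the citrate synthase gene Cs by 0.59 and the mitofusin gene Mfn2 by 0.49 (adjusted p between 0.135 and 0.187). Between neonatal cardiomyocytes and fibroblasts all 33 had higher means (median 1.69) and 2 rose, the lactate dehydrogenase gene Ldhb by 3.11 and Mfn2 by 2.41 (adjusted p = 0.0424 for both), while Cs differed by 1.61 (0.0515). Adult cardiomyocytes over fibroblasts gave 32 that rose (median 2.24), led by the muscle mitochondrial genes Ckmt2 (7.46), Cox7a1 (6.38) and Cox8b (6.16). For these 3 genes the fibroblast SD was between 1.75 and 2.57. Whether the PPAR and ERR lists differ from each other was not tested.

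Of 17 ChREBP targets, 11 had higher means in adult than in neonatal cardiomyocytes (median 0.13). Of all genes 57.4% had higher means, with a median of 0.09. Slc2a4 alone rose among the targets. This gene of the insulin-responsive glucose transporter had 10.34 and 10.02 in adult, against 7.98 and 7.68 in neonatal cardiomyocytes (2.35 ± 0.25 SE, adjusted p = 0.0276). The lipogenic desaturase gene Scd2 had 7.27 and 8.44 in adult, against 12.03 and 11.32 in neonatal cardiomyocytes, a difference of −3.82 ± 0.63 (adjusted p = 0.0573), and Fasn, fatty acid synthase, differed by −1.61 (0.0670). For both lipogenic genes the adult arrays lay below the neonatal cardiomyocyte arrays, while those of Mlxipl lay above. Between adult cardiomyocytes and fibroblasts 4 rose, among them Acacb (4.87), whose product restrains fatty acid import into mitochondria, and Slc2a4 (4.04), and 4 fell, led by Scd2 (−3.55). In neonatal cardiomyocytes over fibroblasts limma called 0 (2 at unadjusted p under 0.05), with Acacb at 3.45, Slc2a4 at 1.69 and Gpd1, a glycerol phosphate enzyme gene, at 0.90 (adjusted p = 0.0559, 0.0619 and 0.310).

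Of 12 PPAR gamma targets, all had higher means in adult than in neonatal cardiomyocytes (median 0.83), and Agpat2, an enzyme of glycerolipid synthesis, rose by 1.99 ± 0.17 (SE, adjusted p = 0.0198). Its arrays read 9.65 and 9.48 in adult, against 7.50 and 7.64 in neonatal cardiomyocytes. The glycerol channel gene Aqp7 differed by 0.89 and the lipase gene Lpl by 0.84 (adjusted p = 0.0707 and 0.200). Between neonatal cardiomyocytes and fibroblasts limma called 0 (6 at unadjusted p under 0.05), with Cidea, a lipid droplet gene, at 3.36, the fatty acid transporter gene Cd36 at 2.83 and Lpl at 1.19. Adult cardiomyocytes over fibroblasts gave 5 that rose, including Cd36 (4.33), Cidea (4.18) and Lpl (2.03); the first and the last are also in the PPAR alpha list.

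**Figure D4:**
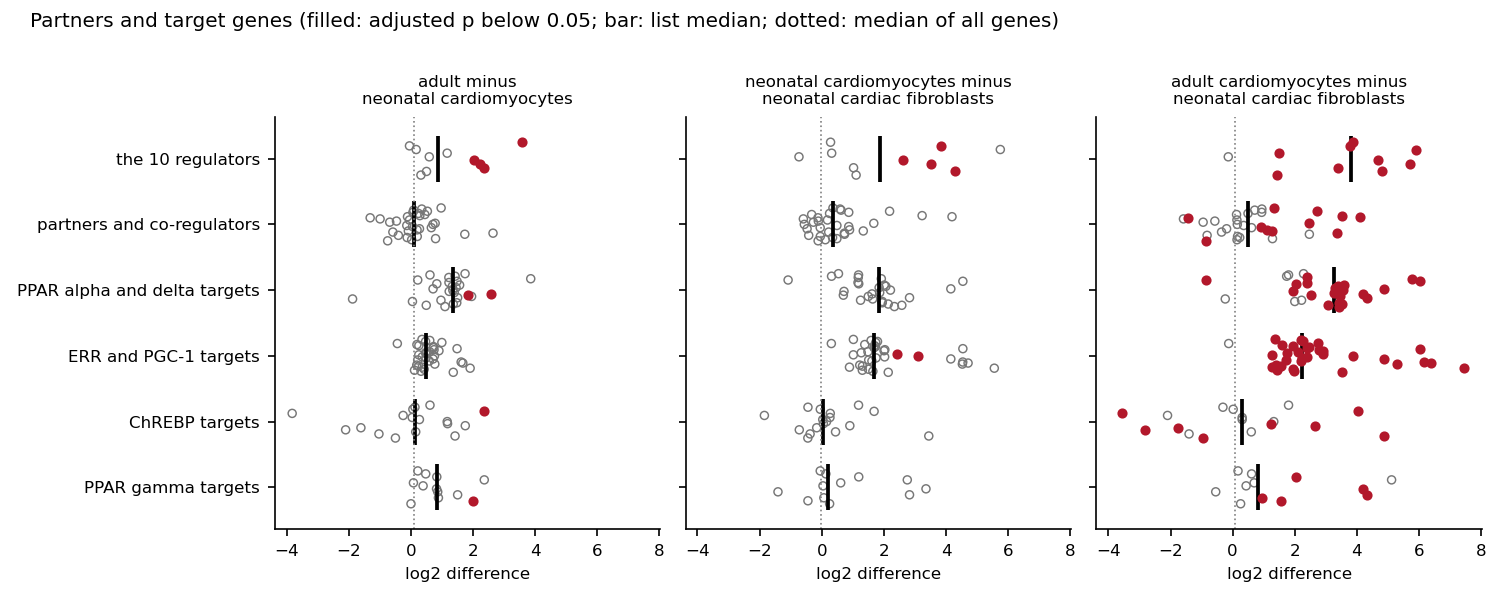
Log2 differences (horizontal axis) of the 10 regulators, of their partners and of the target gene lists in the 3 comparisons; each point is a gene, filled where its adjusted p was under 0.05 over all genes, bars are list medians and the dotted line is the median of all genes. In adult over neonatal cardiomyocytes the PPAR alpha and delta targets have a median of 1.35 and the ERR and PGC-1 targets 0.49, and in adult cardiomyocytes over fibroblasts 32 of 33 ERR and PGC-1 targets are filled.

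Genes with the profiles nearest to each called member were found by the root mean square distance between log2 profiles over the 6 arrays, after each gene's mean was subtracted. Ppara lay nearest to Macrod1 (0.17 log2 units) and to the lipid droplet gene Plin4 (0.22). Nearest to Ppargc1a were Csrp3, a muscle LIM protein gene (0.15), and Myzap (0.27), and nearest to Ppargc1b were Mov10l1 (0.17) and Armh4 (0.22). The profile of Esrrg was closest to Camta1 (0.19) and Nlrp10 (0.23), and that of Perm1 to Hjv (0.17) and Rrad (0.29). For Rxrg these genes were 2210407C18Rik (0.24) and Coq10a (0.28), and for Mlxipl they were Nudt8 (0.20) and Fitm2 (0.20). Such profiles were scarce for the strongly varying members: within 0.3 log2 units lay 2 genes for Perm1, Rxrg and Ppargc1a, and 9 for Ppara. Esrra and Pparg, which vary little, had 153 and 99 genes that close, with Gfod1 (0.06) and Urgcp (0.08) nearest to Esrra and Pik3r6 (0.11) and Lonrf2 (0.14) nearest to Pparg. The distances describe 6 arrays in 3 groups.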

How the data were processed

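The authors deposited log2 expression values per probe set for 6 arrays, made with RMA per the submitters' processing notes. The version of RMA and whether 1 run covered all arrays are not given in the sources used here. GEO's platform annotation named 34945 of 45101 probe sets to 1 gene, 932 to several and 9160 to none, and 64 are controls; each gene was read from its brightest probe set on average. A linear model with 3 group means over all arrays was fitted in limma 3.58.1 (R 4.3.3) with eBayes, with 3 residual and 2.18 prior degrees of freedom, two-sided, adjusted by Benjamini-Hochberg over 18193 genes at a threshold of 0.05. The fit was tested on simulated data. An exact permutation test of 2 arrays against 2 cannot go below 0.333. Precision is limited by the number of arrays. The members and lists were chosen with earlier results of these data known. The text names all members, up to 3 genes per list and comparison (called genes by size, otherwise by smallest p), and the 2 nearest profiles of each called member. Some genes of the lists are not analysed here, and counts are over those measured. Alternatives changed the grouping, arrays, probe sets, filter, variance prior, scaling and the replicate block.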

Additional observations from a re-analysis of the deposited data

How the results depend on the processing

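Each limma count depends on the arrays used. Leaving out 1 array gave 0 to 3 members and 0 to 164 genes in adult over neonatal cardiomyocytes, 0 to 5 and 0 to 437 in neonatal cardiomyocytes over fibroblasts, and 0 to 9 and 0 to 3823 in adult cardiomyocytes over fibroblasts; a lone array of a group is assumed to vary like the others. With the titles' groups the members called were 1, 0 and 1 in that order of comparisons and the genes 114, 0 and 137. Without both arrays whose titles disagree, 0, 0 and 7 members and 0, 0 and 717 genes were called, and without both neonatal replicate 2 arrays (chosen after seeing the data) 0, 0 and 7 members and 0, 0 and 1574 genes. Fitting 2 groups only gave 164 genes in the first comparison, and 0 members and 0 genes in the second. In the second comparison every probe set tested gave 0 members and 0 probe sets, the mean of all probe sets 0 members and 59 genes, repeated quantile normalization 2 members and 126 genes, genes above the median level 5 members (of 6 tested) and 384 genes, eBayes trend 248 and median centring 261. In the first, the mean of all probe sets and genes above the median level (6 members tested) each gave 2 members, with 354 and 403 genes called. Where 0 were called, unadjusted p under 0.05 in limma held for 4 to 7 members in the first comparison, 0 to 7 in the second and 9 in the third, and for 2559 to 3845, 232 to 4949 and 4591 genes. Median centring moved the median of all genes to 0.24 in the third comparison, against 0.09 as deposited.

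Each replicate number covers 1 array of every group. Same-numbered arrays deviated together with correlations of 0.18 to 0.27, but with 2 numbers this does not settle a pairing. Across genes, neonatal cardiomyocyte replicate 2 correlated at 0.9584 with fibroblast replicate 2 and at 0.9571 with its own replicate 1. The other arrays correlated most with the other array of their own group. Whether the numbers mark batches was not tested. With the replicate block 3, 0 and 9 members and 607, 0 and 4811 genes were called (7 members and 3678 genes at unadjusted p under 0.05 in the second), and Ppara lost its call between adult and neonatal cardiomyocytes.

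Of 498 member results under alternatives, 361 kept direction and side of the threshold, 107 lost a call, 2 gained one and 28 turned sign. Some alternatives are the same fit and were counted separately. These are fitting 2 groups only and leaving out either array of the group outside the comparison. In the first comparison Ppargc1b turned to 0.10 without adult replicate 2, 0.34 without neonatal cardiomyocyte replicate 1 or both arrays whose titles disagree, 2.28 with the titles' groups, 0.044 with median centring and 0.0043 with repeated quantile normalization (leaving out 1 array, −0.43 to 0.34). Ppargc1a turned to −0.45 without neonatal cardiomyocyte replicate 2 or both neonatal replicate 2 arrays and to −0.19 with the mean of all probe sets, where Esrra was −0.51 (leaving out 1 array, Ppargc1a lay between −0.45 and 0.79); Ppard was −0.19 with the titles' groups. In the second, the titles' groups gave −0.53 for Ppara, 0.84 for Ppard, −0.14 for Pparg, −2.05 for Ppargc1a, −0.82 for Ppargc1b, −0.9995 for Esrrg, −0.35 for Perm1 and −0.21 for Mlxipl; Pparg was −0.064 without neonatal cardiomyocyte replicate 1 (leaving out 1 array, up to 0.70) and Ppard 0.11 without both arrays whose titles disagree. In the third, Ppard was 0.14 without adult replicate 2, 0.48 without fibroblast replicate 1 or both arrays whose titles disagree, 0.65 with the titles' groups, 0.15 with the mean of all probe sets, 0.061 with repeated quantile normalization and 0.0053 with median centring (leaving out 1 array, −0.76 to 0.48). The titles' groups differ from the main fit only in exchanging both neonatal replicate 1 arrays. By source name, the cardiomyocyte marker median was 14.02 on the cardiomyocyte array and 7.48 on the fibroblast array of this pair. The cause of the other turns was not tested.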
